A study of Mus musculus with 21 samples.

Results

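The C/EBP transcription factor family was followed through brain, liver and skin RNA of newborn mice. Its 5 genes, Cebpa, Cebpb, Cebpd, Cebpe and Cebpg, were found by their symbols among the 24391 gene rows of the count files, and all 5 had a row in each of the 21 libraries. The KI mice were heterozygous knock-ins of Jak1, with the alleles H595D/+, I596I/+ and Y597Y/+, and the controls were WT mice. All were C57BL/6 newborns taken at P0, with 2 KI mice and 5 WT mice, and each mouse gave 1 library from each of the 3 tissues. The KI line was made by CRISPR editing and goes back to a mosaic founder. H595D changes the protein, whereas I596I and Y597Y are silent. The counts are totals of reads per gene and do not show single bases, so the Jak1 counts do not show the edit. The members are described in the WT tissues first, and KI and WT mice are then compared within each tissue.

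C/EBP proteins bind DNA as dimers through a basic leucine zipper, and they pair with each other and with related zipper proteins such as ATF4. C/EBPα drives the differentiation of hepatocytes, adipocytes and granulocytes, and C/EBPε acts late in granulocyte maturation. C/EBPβ and C/EBPδ are the members best known for induction in inflammation, with IL-6, STAT3 and IL-1 among their inputs and the acute-phase genes of the liver among their targets, while C/EBPγ lacks an activation domain of its own and works mainly through its partners.

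The 250 bases before the transcription start are shown for Cebpb, which responds to cyclic AMP through its promoter, and for the neighbours Cebpa and Cebpg, as RefSeq gives them on GRCm38.p6. Letters run 5′ to 3′ on the strand of the gene, and capitals mark the CRE half-site, TGACG or its reverse complement.
Cebpb, chr2:167688665-167688914, plus strand: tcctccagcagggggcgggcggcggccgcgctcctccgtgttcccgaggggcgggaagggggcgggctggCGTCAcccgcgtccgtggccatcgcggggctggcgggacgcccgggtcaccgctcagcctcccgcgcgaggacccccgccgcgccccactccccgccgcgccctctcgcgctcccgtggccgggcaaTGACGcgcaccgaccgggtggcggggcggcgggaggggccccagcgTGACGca
Cebpa, chr7:35119043-35119292, plus strand: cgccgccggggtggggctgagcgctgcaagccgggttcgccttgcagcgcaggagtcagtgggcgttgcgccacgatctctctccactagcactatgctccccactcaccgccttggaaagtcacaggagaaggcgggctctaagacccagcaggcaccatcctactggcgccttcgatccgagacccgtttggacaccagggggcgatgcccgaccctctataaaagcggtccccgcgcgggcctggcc
Cebpg, chr7:35056567-35056816, minus strand: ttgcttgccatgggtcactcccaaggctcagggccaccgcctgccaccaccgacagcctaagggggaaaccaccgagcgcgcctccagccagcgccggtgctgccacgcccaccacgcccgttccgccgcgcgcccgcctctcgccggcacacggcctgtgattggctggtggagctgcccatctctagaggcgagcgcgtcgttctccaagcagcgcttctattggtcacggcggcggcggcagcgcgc
The Cebpb promoter held 3 CRE half-sites, at bases -180 to -176 as CGTCA and at -53 to -49 and -7 to -3 as TGACG, counted back from the start. Both strands were searched, and 17.8% of 32851 promoters of this length hold the half-site. None of the 3 promoters held an exact match to the C/EBP pattern TTGCNNAA, the STAT motif TTCNNNGAA or the C/EBP-ATF element TGATGNAA. These occur in 9.56%, 7.02% and 3.45% of promoters. Near matches were not searched for, so the lack of an exact match does not show that a promoter has no such site. The Cebpb promoter was the richest in G and C, at 81.6%, against 70.8% for Cebpg and 66.4% for Cebpa. Cebpd and Cebpe were named only.

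The loci are given on NCBIM37 (mm9), the build of the count files. Cebpa is an intronless gene on chromosome 7 from 35904312 to 35906945, plus strand, with 1 exon of 2634 bases. Cebpg lies on the minus strand of the same chromosome from 35831441 to 35841522, with 2 exons and a transcript of 4639 bases, and 62789 bases separate it from Cebpa. Cebpb, also with 1 exon, spans 1504 bases of chromosome 2 from 167514415 to 167515918, and Cebpe lies on chromosome 14 from 55329200 to 55331011, minus strand, with a transcript of 1238 bases. For Cebpd, on chromosome 16 from 15887379 to 15888559, GENCODE M1 holds a single model of 1180 bases that it types as a pseudogene, and levels of Cebpd per length rest on that model. Cebpg had the lowest GC content of the transcripts, 42.9%, and the other 4 ranged from 61.6% to 67.2%.

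The libraries held between 26549326 and 38388133 counts on genes, so that 3 counts, the level below which a gene is not told from 0, came to 0.0781 to 0.113 CPM, counts scaled to the size of the library. The brain library of WT 5 stood apart from the other WT brains: the chi-square of its counts against theirs was 168 to 198 per degree of freedom, against 25.1 to 40.3 among the other 4. Skin libraries differed in their makeup. The summed level of 9 keratinocyte markers was 12740 and 879 CPM in the KI skins and 1551 to 15698 CPM in the WT skins, and that of 10 adipocyte markers was 2704 and 7051 CPM in KI and 896 to 6625 CPM in WT. The tissue labels matched their markers: 10 neuron markers summed to between 6693 and 7684 CPM in the brain and to at most 78.7 CPM elsewhere, and hepatocyte and keratinocyte markers were highest in the liver and the skin. Whether fewer cells of a type or less RNA per cell lies behind a low level cannot be told apart in bulk tissue.

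In WT mice, each member had its own distribution over the tissues. Levels are given as CPM, scaled by TMM over all 21 libraries. Cebpa was nearly absent from the brain, at 4.12, 3.21, 3.53, 2.47 and 3.77 CPM in WT 1 to WT 5, and reached 388, 429, 483, 403 and 410 CPM in the liver. In the skin of the same mice Cebpa stood at 252, 150, 320, 154 and 130 CPM. On this scaling every liver exceeded every skin, and every skin exceeded every brain, although the skins spread over a wide range. Without TMM, on plain totals per library, the skin of WT 3 stood at 354 CPM, above all WT livers (281 to 344 CPM). The skin of WT 1, at 296 CPM, then lay above its own liver at 292 CPM. The order of single livers and skins thus depends on the scaling. Of the Cebpa transcripts summed over the 3 tissues of a mouse, 68.2% ± 7.58 (SD, n = 5) were hepatic, 31.2% ± 7.61 were in skin and 0.553% ± 0.115 in brain.

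Cebpb and Cebpd, the inflammatory members, did not separate liver from skin. Cebpb stood at 51.1, 55.8, 39.4, 61.3 and 28.1 CPM in the livers of WT 1 to WT 5 and at 49.6, 40.0, 46.7, 42.2 and 37.4 CPM in their skins, and in the brain at 1.90, 4.17, 1.92, 2.13 and 5.23 CPM. Cebpd stood at 33.2, 40.9, 32.3, 67.1 and 27.4 CPM in the liver, at 34.9, 38.7, 29.2, 37.03 and 32.7 CPM in the skin and at 3.46, 6.87, 3.66, 3.31 and 8.94 CPM in the brain. Liver and skin values overlapped for both genes, and all brains lay below both tissues. Within the brain, WT 2 and WT 5 were the highest 2 libraries for both genes, while WT 5 had the lowest liver value for both.

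Cebpe, the granulocyte member, was a liver transcript in these newborns. Its counts were 668, 663, 595, 324 and 889 in the WT livers, against 0, 3, 2, 0 and 0 in the WT brains and 7, 0, 1, 1 and 2 in the WT skins. All brain libraries and most skin libraries were at or under the limit of 3 counts, and 99.7% ± 0.232 (SD, n = 5) of the Cebpe level of a mouse was in the liver. The newborn liver still makes blood cells, and the summed level of 11 neutrophil markers was 5952 to 7669 CPM in WT livers, with no marker at 0, against 15.5 to 33.6 CPM in WT skins and 3.68 to 12.5 CPM in WT brains. The lowest and highest WT livers for Cebpe, WT 4 at 14.4 CPM and WT 5 at 37.4 CPM, were also the lowest and highest for the neutrophil markers; the part of the markers in the Cebpe level was not tested.

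Cebpg, the member without an activation domain, was the most even. In WT 1 to WT 5 its brain levels were 30.6, 25.5, 39.6, 25.4 and 45.5 CPM, its liver levels 117, 108, 149, 104 and 156 CPM, and its skin levels 68.0, 50.2, 91.9, 53.2 and 76.7 CPM. The liver was highest and the brain lowest in each of the 5 mice, at 3.42 to 4.23 times the brain. WT 3 and WT 5 were the highest 2 mice in each tissue. The shares of Cebpg over the tissues varied little between mice, at 14.5% ± 1.05 (SD, n = 5) for brain, 55.8% ± 2.24 for liver and 29.7% ± 2.42 for skin.

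**Figure D1:**
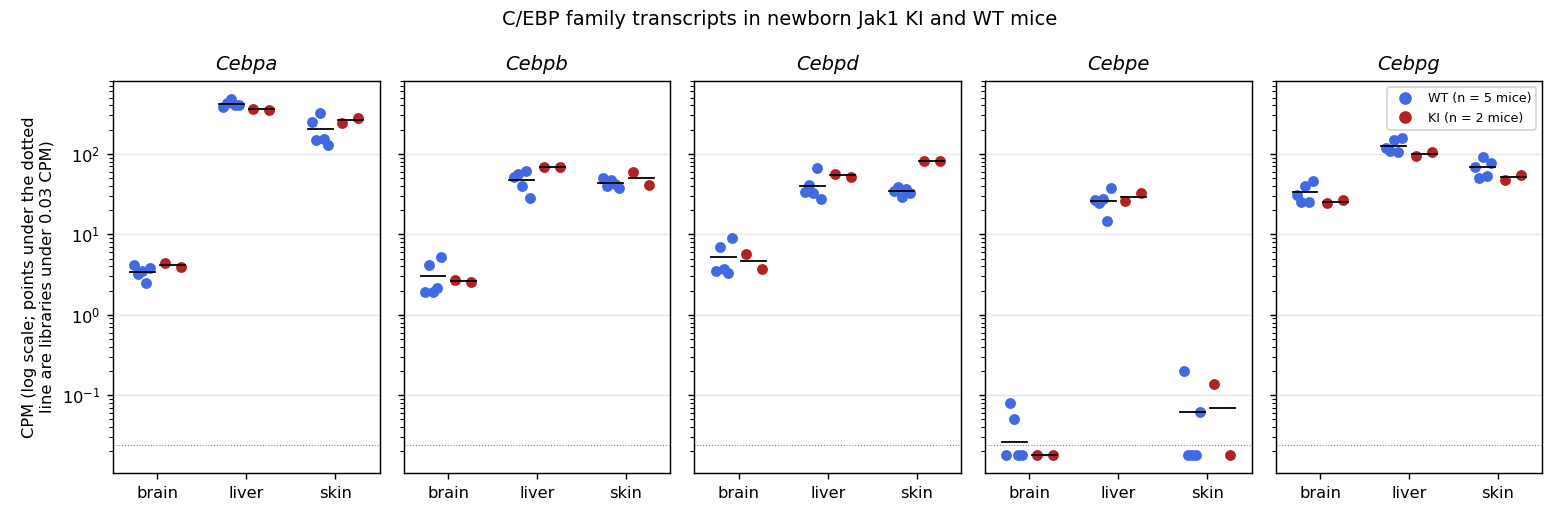
Level of each C/EBP member in CPM on a log scale, by tissue, with 1 point per library (WT in blue, n = 5 mice; KI in red, n = 2 mice) and a line at each group mean. Libraries under 0.03 CPM are drawn below the dotted line. Cebpe exceeds 1 CPM in the liver alone, and the 2 KI skins lie above all WT skins for Cebpd.

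The tissue differences of the WT mice were tested with edgeR's quasi-likelihood test over 17071 genes, with a gene called at a Benjamini-Hochberg adjusted p under 0.1. Between WT liver and WT brain, where 83.4% of all genes tested were called, 5 of 5 members were called and all were higher in the liver, as 40.2% of genes were. The log2 fold change was 6.95 (standard error, SE, 0.281) for Cebpa, 3.95 (0.308) for Cebpb, 2.94 (0.309) for Cebpd and 1.93 (0.207) for Cebpg. Between WT skin and WT brain, with 79.4% of genes called, 4 of 5 members were called higher in the skin, as 40.3% of genes were, and the log2 fold changes were 5.88, 3.82, 2.72 and 1.03 in the same order. Cebpe was not called there (adjusted p = 0.296), with counts near 0 on both sides, but was called when WT 2 was left out (2.24, adjusted p = 0.0701) and turned to -0.25 without WT 1.

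WT liver and WT skin differed in 72.3% of genes, and 3 of 5 members were called, all higher in the liver, as 32.5% of genes were. The log2 fold change was 1.08 for Cebpa (SE 0.217, adjusted p = 0.000377 by edgeR) and 0.90 for Cebpg (SE 0.201, adjusted p = 0.000873), and Cebpe was the third. For Cebpb the log2 fold change was 0.13, with a 95% interval from -0.44 to 0.71 (adjusted p = 0.680). For Cebpd it was 0.23, from -0.38 to 0.83 (adjusted p = 0.498), and differences of either sign lie within both intervals. Without TMM, on plain totals per library, the mean share of Cebpb was 37.8% for liver and 57.7% for skin, and that of Cebpd 37.3% and 53.9%, so the order of these tissues depends on the scaling.

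Levels of different members can be set side by side only per length, here as CPM per kilobase of the longest transcript. In the WT liver, Cebpa led with 160 ± 14.0048 (SD, n = 5), followed by Cebpd at 34.0 ± 13.4, Cebpb at 31.3 ± 8.90, Cebpg at 27.3 ± 5.15 and Cebpe at 21.1 ± 6.65. The ranges of the 4 lower members overlapped. Cebpa led in the WT skin as well, at 76.4 ± 31.0 CPM per kilobase, ahead of Cebpd at 29.2 ± 3.18 and Cebpb at 28.7 ± 3.30, which overlapped each other, and of Cebpg at 14.7 ± 3.71, which did not reach either of them. The brain had another order: Cebpg came first at 7.18 ± 1.92 CPM per kilobase, then Cebpd at 4.45 ± 2.15, Cebpb at 2.04 ± 1.02 and Cebpa at 1.30 ± 0.238. Each neighbour in that order overlapped the next, but Cebpg overlapped neither Cebpb nor Cebpa. The family as a whole summed to 14.99 ± 4.46 CPM per kilobase in the WT brain, 149 ± 34.3 in the WT skin and 274 ± 15.1 in the WT liver. In shares of that sum, Cebpa made up 58.5% ± 3.33 of the WT liver and 49.7% ± 8.43 of the WT skin, and Cebpg 48.9% ± 9.23 of the WT brain.

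**Figure D2:**
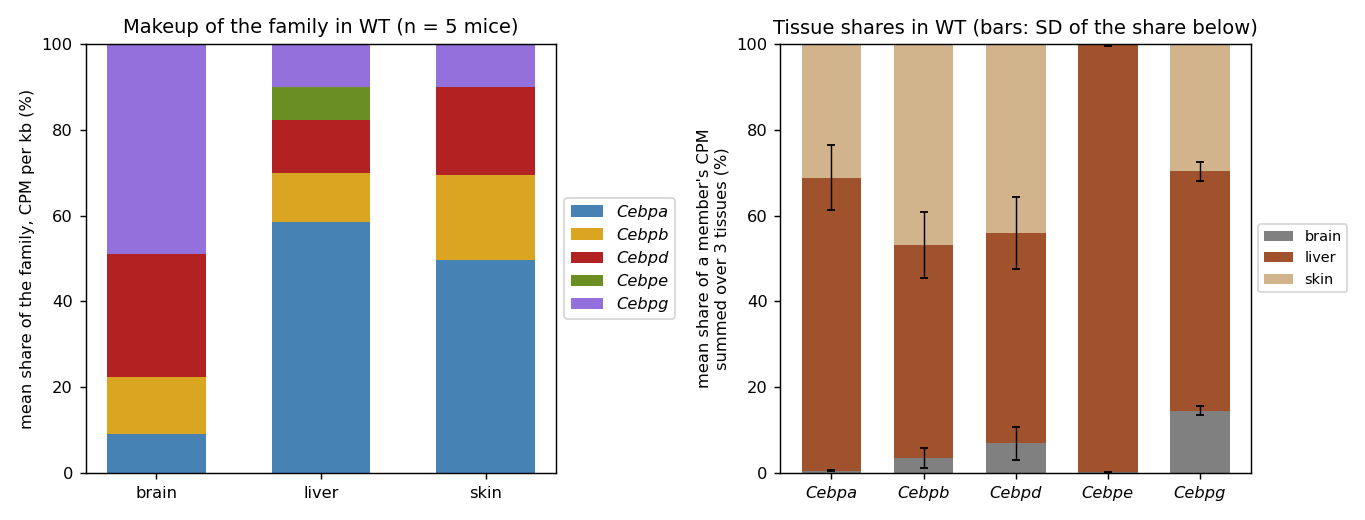
Left, mean share of each member in the family's summed CPM per kilobase in WT brain, liver and skin (%, n = 5 mice). Right, mean share of each member's CPM in the 3 tissues (%, n = 5 mice), with bars for the SD of the share below. Cebpg holds the largest part of the brain bar, Cebpa that of liver and skin, and Cebpe sits almost whole in the liver.

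KI and WT skins differed most clearly in Cebpd, which encodes an inflammatory C/EBP and is a known target of STAT3. Its level was 81.3 and 80.9 CPM in the skins of KI 1 and KI 2 and 34.9, 38.7, 29.2, 37.03 and 32.7 CPM in WT 1 to WT 5. Both KI skins lay far above all 5 WT skins, and neither group had a library near the other. Cebpd rose with a log2 fold change of 1.21 (SE 0.123, unadjusted p = 1.12e-05, adjusted p = 0.0899 by edgeR), a factor of 2.32. In the skin 0.0247% of genes were called, and Cebpd, the only member of the family among them, was 1 of 4, the others being Lrg1, Oasl1 and Selp (the last 2 chosen after their values were seen).

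The size of the Cebpd difference in the skin held while its call did not. Over 13 other fits the log2 fold change ran from 1.11 to 1.29, and 3 of them called Cebpd, with adjusted p-values between 7.46e-11 (DESeq2) and 0.0829. The call was lost in a fit of all 21 libraries (adjusted p = 0.290), with Y-linked expression as a covariate (0.127) and when any 1 of the 7 mice was left out (0.136 to 0.924). As a share of the family per length, Cebpd held 32.7% and 31.9% in the KI skins and 12.5% to 25.8% in the WT skins. The family sum was 213 ± 2.87 CPM per kilobase (SD, n = 2) in the KI skins and 149 ± 34.3 (SD, n = 5) in the WT skins. KI 1 and KI 2 had nearly the same level of Cebpd. Their keratinocyte markers, 9 of 10 of which were in the files, stood near opposite ends of the skin libraries. The part of the keratinocyte markers in the Cebpd level was not tested. Macrophage markers were also higher in the KI skins: 11 genes summed to 861 and 1192 CPM there and to 568 to 788 CPM in the WT skins. At most 1 gene was at 0 in a library. In the skins of WT 1 to WT 5 the macrophage markers summed to 788, 568, 667, 650 and 667 CPM. Their part in the result was not tested. Skin RNA was of lower integrity than that of the other tissues in the study's methods, in KI and WT mice together.

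The other members were not called in the skin. Cebpb stood at 58.9 and 41.5 CPM in the KI skins, 1 above and 1 within the WT range of 37.4 to 49.6 CPM (log2 fold change 0.20, 95% interval -0.19 to 0.60, adjusted p = 0.999 by edgeR). Cebpa, at 243 and 281 CPM, lay within the WT range of 130 to 320 CPM, with a log2 fold change of 0.36 (SE 0.348). The lowest 3 WT skins for Cebpa were also the lowest 3 WT skins for the adipocyte markers, and WT 3 was the highest of the WT skins in both. Within the lowest 3 the order differed: WT 4 had the lowest markers, at 896 CPM, and WT 5 the lowest Cebpa, at 130 CPM. KI 1 had 243 CPM of Cebpa at 2704 CPM of markers, and KI 2 had 281 CPM at 7051 CPM. The part of the adipocyte markers in the Cebpa level was not tested. For Cebpg the KI skins stood at 47.7 and 55.1 CPM against 50.2 to 91.9 CPM, a log2 fold change of -0.42 (SE 0.239). Cebpe, with 5 and 0 counts in the KI skins, did not pass the filter on low counts.

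**Figure D3:**
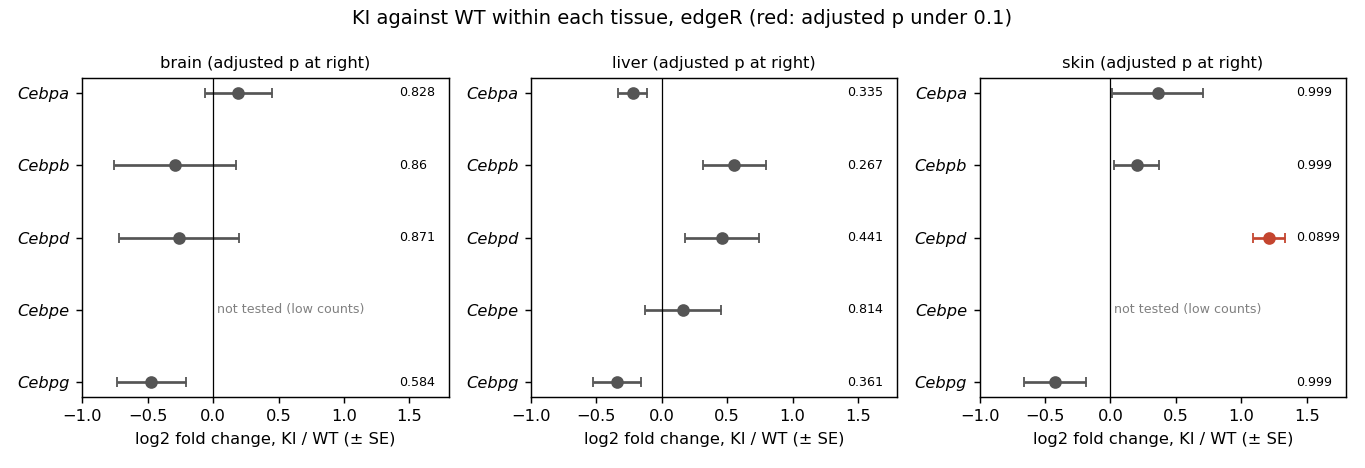
Log2 fold change of each member between KI (n = 2) and WT (n = 5) in brain, liver and skin by edgeR, with bars for the SE and the adjusted p at the right. Cebpd in the skin, at 1.21, is the single point called (red), and Cebpg lies below 0 in all 3 tissues without a call.

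In the liver 5.57% of genes were called, and 0 of the 5 members were among them. Cebpb, at 68.8 and 67.8 CPM in KI 1 and KI 2, lay above all WT livers, which stood at 51.1, 55.8, 39.4, 61.3 and 28.1 CPM. The gap between the lower KI liver and the highest WT liver was small beside the WT spread, and the log2 fold change of 0.55 was not called (SE 0.239, unadjusted p = 0.0448, adjusted p = 0.267 by edgeR). Its adjusted p ranged from 0.121 to 0.664 over 13 other fits, none of which called it. Cebpd, at 56.99 and 51.8 CPM, lay above 4 of the WT livers and below WT 4, at 67.1 CPM. Its log2 fold change was 0.46 (SE 0.284, adjusted p = 0.441), and without WT 4 it was 0.72 and called (adjusted p = 0.0289).

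Cebpa went the other way in the liver. It stood at 364 and 352 CPM in the KI livers, below every WT liver, the lowest of which was 388 CPM. The log2 fold change of -0.22 was not called (SE 0.112, adjusted p = 0.335 by edgeR), and its 95% interval ran from -0.47 to 0.029. In shares of the family per length, which are bound to sum to the whole, Cebpa held 49.9% ± 0.954 (SD, n = 2) of the KI livers and 58.5% ± 3.33 (SD, n = 5) of the WT livers, and Cebpb 16.7% ± 0.0764 and 11.4% ± 3.16. The family sum itself was 272 ± 1.52 CPM per kilobase in KI and 274 ± 15.1 in WT.

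Cebpg stood at 93.8 and 104 CPM in the KI livers and at 104 to 156 CPM in the WT livers (log2 fold change -0.34, SE 0.181, adjusted p = 0.361 by edgeR). Cebpe, at 25.7 and 32.3 CPM, lay within the WT range of 14.4 to 37.4 CPM, with a log2 fold change of 0.16 and a 95% interval from -0.49 to 0.82. The neutrophil markers, by contrast, summed to 9253 and 11027 CPM in the KI livers, above all WT livers, and 11 macrophage markers summed to 2842 and 2939 CPM against 1857 to 2335 CPM. The summed level of 10 erythroid markers was lower, at 3705 and 3573 CPM in KI against 4303 to 5857 CPM in WT. Of these 10, 4 were at 0 in each KI liver and 2 to 4 in each WT liver, so the sum covers only part of the list. The 12 hepatocyte markers overlapped, at 235947 and 230779 CPM in KI and 233166 to 286562 CPM in WT. The 10 adipocyte markers summed to 325 and 320 CPM in KI and 132 to 166 CPM in WT. Of these, Fabp4 alone gave 277 to 281 CPM in KI and 94.1 to 126 CPM in WT. Pparg and Lipe were also above all WT livers. Pparg had 12.83 to 12.91 CPM in KI and 6.102 to 8.601 CPM in WT. Lipe had 13.35 to 14.03 CPM in KI and 11.19 to 13.02 CPM in WT. Slc2a4 overlapped, at 16.63 to 17.72 CPM in KI and 17.27 to 26.96 CPM in WT. Cidec was lower, at 0.172 to 0.316 CPM in KI and 0.3196 to 0.838 CPM in WT. Cfd and Retn reached at most 0.186 CPM in any liver. The defining markers Adipoq, Plin1 and Lep were at 0 in both KI livers and at no more than 0.0932 CPM in the WT livers. What part these cells had in the liver values was not tested.

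In the brain edgeR called 0% of genes, and so 0 members, while 1732 genes had an unadjusted p under 0.05 and DESeq2 called 604 genes, none of them a member. Cebpb, at 2.74 and 2.58 CPM in the KI brains, lay between the low WT brains (1.90, 1.92 and 2.13 CPM) and the high ones (4.17 and 5.23 CPM). Cebpd likewise lay between them, at 5.63 and 3.67 CPM against 3.31 to 8.94 CPM. The log2 fold changes of -0.29 for Cebpb and -0.26 for Cebpd (SE 0.468 and 0.459, adjusted p = 0.860 and 0.871 by edgeR) moved to 0.018 and 0.049 without WT 5, the library that stood apart. Cebpa had 4.38 and 3.92 CPM in KI and 2.47 to 4.12 CPM in WT (log2 fold change 0.19, SE 0.255). Cebpg had 24.7 and 26.3 CPM in KI and 25.4 to 45.5 CPM in WT, with a log2 fold change of -0.47 (SE 0.264, adjusted p = 0.584) and of -0.31 without WT 5. Cebpe was not counted at all in the KI brains, and at 3 counts a library this allows up to 0.0894 CPM in the shallower one.

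Whether the KI effect on a member differed between tissues was tested in 1 fit of all 21 libraries over 18062 genes. No member was called in any of the 3 differences, in which 2.81% (liver minus brain), 0% (skin minus brain) and 0.0997% (skin minus liver) of genes were called. For skin minus brain, where no gene was called, 1339 genes had an unadjusted p under 0.05 and DESeq2 called 56. The KI effect on Cebpd was larger in the skin than in the brain by 1.40 on the log2 scale (SE 0.507, unadjusted p = 0.0125, adjusted p = 0.568 by edgeR). It was larger in the skin than in the liver by 0.79 (95% interval -0.24 to 1.83). For Cebpb the difference between liver and brain was 0.74 (95% interval -0.28 to 1.76, adjusted p = 0.502). Cebpd thus passed the test in the skin alone, but its effect was not shown to differ between tissues.

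Cebpb and Cebpd varied together from library to library. After the mean of each tissue was taken out of log2 CPM, their levels correlated with r = 0.74 over the 21 libraries and with r = 0.88 over the 15 WT libraries. The points share mice, since each mouse gave 3 of them, and they share library depth, so the value is a description. The KI skins are where the pair parted: Cebpd stood apart from WT there, while Cebpb of KI 2 lay among the WT skins. Among the other pairs, r ran from -0.36 for Cebpd and Cebpg to 0.26 for Cebpa and Cebpg.

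**Figure D4:**
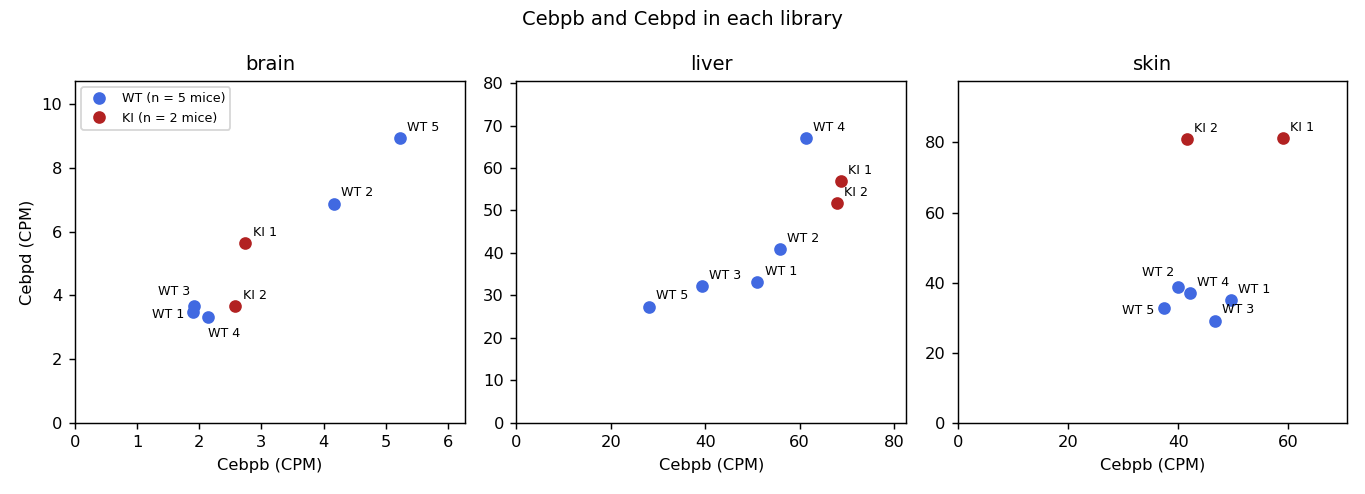
Cebpb (x axis, CPM) against Cebpd (y axis, CPM) in each library of brain, liver and skin, with WT in blue (n = 5 mice) and KI in red (n = 2 mice). The genes rise together in brain and liver, and in the skin the 2 KI libraries stand at about 81 CPM of Cebpd over a WT group at 29.2 to 38.7 CPM.

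The genes whose pattern was most like that of a member were found by the same correlation over 11787 genes with at least 1 CPM on average in every tissue. For Cebpb they were Ifi30, a lysosomal thiol reductase (r = 0.91), the AP-1 factor gene Fosl2 (0.83), St3gal4 (0.83), Itm2c (0.80) and Rhob (0.79). For Cebpd they were Snx8 (0.83), Gm4285 (0.83), Fbxl12 (0.82), the AP-1 factor gene Jund (0.81) and the BCL2 family gene Mcl1 (0.80). The nearest to Cebpa were Acad11 (0.90), Lonp2 (0.83) and Aldh4a1 (0.81), which encode enzymes of peroxisomes or mitochondria. Rbm12b1 (0.86), Krcc1 (0.86) and Mrpl49 (0.86) were nearest to Cebpg, and the values for Cebpe were lower, with Nrn1 at 0.72, Desi1 at 0.64 and Cpsf3l at 0.63. Cebpe itself did not reach 1 CPM in brain or skin, with at most 7 counts in a library there. Its r values therefore take in counts near 0 beside the liver levels. Over the WT libraries alone these genes kept r of 0.64 to 0.89. Of the genes near Cebpb, Itm2c, Ifi30 and St3gal4 were called higher in the KI livers, with log2 fold changes of 0.51, 0.52 and 0.49 (adjusted p = 0.0236, 0.0854 and 0.0985 by edgeR); these libraries also set the likeness.

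Partners and regulators of C/EBP proteins, a list of 20 genes, had few calls. In the liver, where 3.89% of all genes were called higher, 2 of 20 tested were called, both higher, and the median log2 fold change was 0.06 against -0.02 over all genes. They were Batf, a zipper protein of immune cells (1.10, SE 0.246, adjusted p = 0.0525 by edgeR), and Runx1, a blood cell factor that works beside C/EBPα (0.51, SE 0.112, adjusted p = 0.0502). Atf5, a stress-response zipper protein, missed the threshold at -0.57 (adjusted p = 0.157). In the brain 0 of 19 and in the skin 0 of 20 were called, with medians of -0.02 and 0.01 against -0.02 and -0.03 over all genes. Atf4, which dimerizes with C/EBPγ, had a log2 fold change of -0.51 in the brain (adjusted p = 0.480), Batf3 one of -0.86 and Klf5 one of 0.65. The lowest p-values of the list in the skin were those of Klf15 (0.65), Trib2 (0.33) and Trib1 (0.69), a pseudokinase that promotes breakdown of C/EBPα, none of them called.

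The list of 30 cytokine and STAT3 inputs to C/EBP genes also holds the feedback inhibitors Socs1, Socs3 and Cish. Of the 30, 28 were tested in the liver and 5 were called, all higher, as 3.89% of all genes were. The median was 0.27 against -0.02 over all genes. Socs3, the feedback inhibitor of STAT3 signaling, rose most clearly, from 26.1 ± 10.1 CPM (SD, n = 5) to 110 ± 7.41 CPM (SD, n = 2), a log2 fold change of 2.09 (SE 0.314, adjusted p = 0.0120 by edgeR). Csf3r, the receptor for G-CSF, rose by 1.20 and Stat3 by 0.43 on the log2 scale (adjusted p = 0.0260 and 0.0377). Il6 had 67 and 34 counts in the KI livers and 1 to 13 in the WT livers (2.89, adjusted p = 0.0525), and Tnfrsf1a had a log2 fold change of 0.45 (adjusted p = 0.0604). Jak1 itself was not called (0.30, adjusted p = 0.125).

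In the skin 0 of 29 inputs were called, with a median of 0.18 against -0.03 over all genes. The lowest p-values there were those of the receptor genes Il6st (0.54), Osmr (0.66) and Il6ra (0.87), with adjusted p-values of 0.466 to 0.879, and for each of them both KI skins lay above all WT skins. Il6 (2.74), Socs3 (1.38), Stat3 (0.44) and Jak1 (0.18) were not called either, and the 2 KI skins differed in Socs3, with 4061 and 1614 counts. In the brain 0 of 24 were called, with a median of 0.22 against -0.02, and Stat3 (0.33), Il6ra (1.13) and Il11 (-0.98) had the lowest p-values. Il6 was at 0 counts in every brain library, Socs3 had a log2 fold change of 0.40 and Jak1 of 0.21, neither called.

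Acute-phase genes, 31 in the list and many of them known C/EBP targets, were mostly above 0 in the KI livers: 26 of 28 tested were above 0, as 46.8% of all genes were, and the median log2 fold change was 0.34 against -0.02. Of the 28, 7 were called, all higher, beside 3.89% of all genes. Lrg1, a secreted glycoprotein, was the clearest, at 127 ± 16.9 CPM (SD, n = 5) in WT and 384 ± 1.79 CPM (SD, n = 2) in KI (1.62, SE 0.133, adjusted p = 0.000759 by edgeR). Serpina3n, a protease inhibitor (1.13), Hamp, which encodes the iron hormone hepcidin (1.09), ceruloplasmin, Cp (0.93), A2m (0.85), hemopexin, Hpx (0.50), and Itih3 (0.49) were the other called genes, with adjusted p-values of 0.00365 to 0.0734. In the skin 1 of 23 was called, again Lrg1, which had 1078 and 1344 counts in KI and 191 to 375 in WT (2.48, adjusted p = 0.0899), and the median of the list was -0.03, as over all genes. Cfb (1.16) and Saa3 (2.72) followed in the skin without a call, Saa3 with 0 to 38 counts in a library. In the brain 0 of 12 were called, with a median of 0.16, and Mt1 (-0.80), Hp (1.54) and Lcn2 (-2.25, on 1 to 28 counts) had the lowest p-values.

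Granulocyte genes of the C/EBPα and C/EBPε programme had the largest share of calls among the 4 lists in the liver. The files held 23 of the 25 listed genes; all 23 were tested in the liver and lay above 0, 10 were called higher, beside 3.89% of all genes, and the median was 0.55 against -0.02 over all genes, while Cebpe and Cebpa themselves were not called. Csf3r (1.20), Retnlg (1.07, adjusted p = 0.00239 by edgeR), Cxcr2 (0.93), Mmp8 (0.75), S100a8 (0.64), Itgam (0.62), S100a9 (0.61), Prtn3 (0.57), Ctsg (0.49) and Cybb (0.47) were called. The list holds every gene of the neutrophil marker list, so its calls and the summed markers above are not independent. Csf3r is also on the list of inputs and was counted in both. In the skin 0 of 22 were called, with a median of 0.27 and the lowest p-values for Itgam (0.79), Cybb (0.82) and Cxcr2 (2.07). In the brain 0 of 12 were called and the median was -0.57, on counts as low as 1 for Ngp (-3.61) in both KI brains, beside S100a9 (-2.16) and Lyz2 (-0.62).

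**Figure D5:**
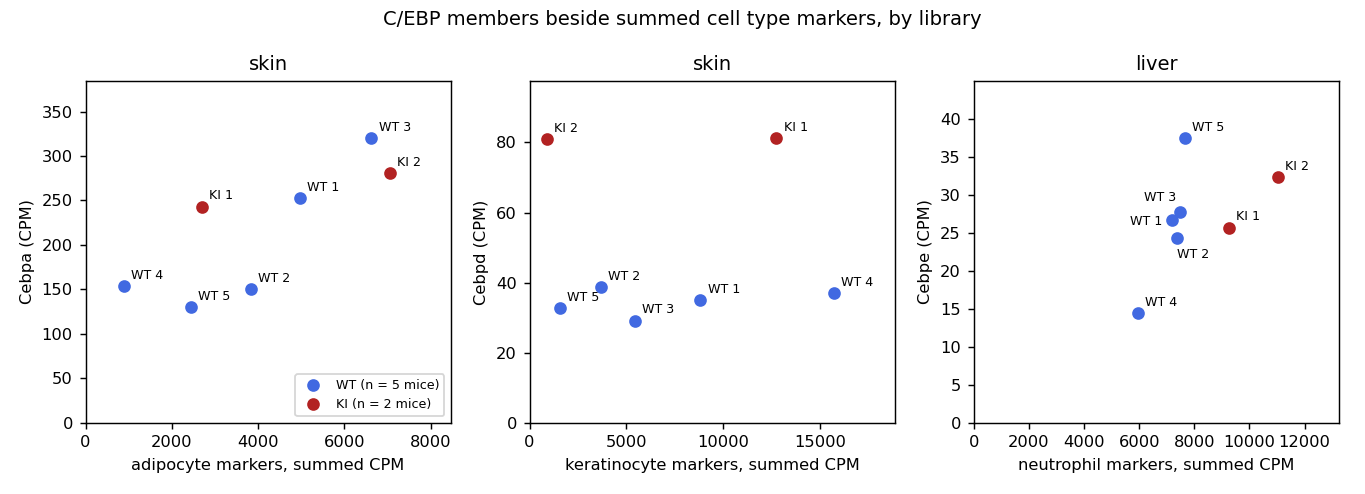
C/EBP members (CPM, y axes) against summed markers (CPM, x axes) in each library: Cebpa and adipocyte markers in the skin, Cebpd and keratinocyte markers in the skin, Cebpe and neutrophil markers in the liver (WT in blue, n = 5 mice; KI in red, n = 2 mice). The 2 KI skins share a Cebpd level of about 81 CPM at 879 and 12740 CPM of keratinocyte markers.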

How the data were processed

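Total RNA of brain, liver and skin from 2 KI and 5 WT newborns was sequenced as paired-end TruSeq libraries. Per the labels and the study's methods, the authors aligned the reads to mm9 with TopHat2 and counted them with HTSeq, and they deposited raw counts per gene symbol, 1 file per library, with 5 summary lines that were left out here. Between 80.5% and 87.6% of uniquely aligned reads were on genes. The use of strand in counting is not given in the sources used here, so reads of overlapping or antisense genes may not be told apart.

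KI and WT libraries were compared within each tissue with edgeR 4.0.16 in R 4.3.3 (filterByExpr, TMM, quasi-likelihood test). Adjusted p-values (Benjamini-Hochberg) ran over all genes tested, and 0.1 was the threshold. WT tissues were compared over 15 libraries and differences between tissues over 21. Intervals take the standard error and the t quantile at the residual plus prior degrees of freedom of edgeR. GENCODE M1 models matched 85.4% of symbols. Alternatives used DESeq2 1.42.0, other filters, covariates, a stricter threshold and each mouse left out, and, added after seeing the data, trends on length or GC with a replicate block and WT libraries alone for likeness. Figures and tables used Python 3.11.15. The steps were tested on simulated data.

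Named genes were the 5 members, the 3 tested genes of each list with the lowest p per tissue, Jak1, Stat3, Il6 and Socs3, the called genes of each list, and the 5 (Cebpb, Cebpd) or 3 genes most like a member. Members and lists were chosen with earlier results of these data known. The called list genes beyond the rule were named after their values were seen. Libraries of 1 genotype and number were taken as 1 mouse. After group means were removed they correlated across tissues with r of -0.02 to 0.39 over 21 pairs. With 2 KI mice, KI 1 and KI 2 have the same r by construction. Libraries of different mice were not compared across tissues, so these values do not test whether the numbers mark 1 mouse.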

Additional observations from a re-analysis of the deposited data

How the results depend on the processing

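With 2 KI mice a group SD rests on 2 values, and calls in the skin lie close to the threshold. The number of genes called changed with the setting. In the liver it went from 833 to 1489 (DESeq2), 383 (adjusted p under 0.05), 242 (all 21 libraries) and 409 (Y-linked covariate). With 1 WT mouse left out it was 557 to 1290. In the brain it went from 0 to 614 (all 21 libraries), 2165 (replicate block), 604 (DESeq2) and 1698 (without WT 5). In the skin it went from 4 to 0 (adjusted p under 0.05 or replicate block), 23 (all 21 libraries), 1 (Y-linked covariate) and 107 (DESeq2). With 1 WT mouse left out it was 0 to 1. For liver minus brain, 508 genes became 220 at the stricter threshold, 1389 with DESeq2 and 0 to 881 with 1 mouse left out. For skin minus liver, 18 became 11 with only the 2 tissues, 119 with DESeq2 and 3 to 32 with 1 mouse left out. For skin minus brain, 0 became 56 with DESeq2. The cause of these changes was not tested.

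Members called in the skin went from 1 to 0 with an adjusted p under 0.05, all 21 libraries, the replicate block or the Y-linked covariate, and were 0 to 0 with 1 mouse left out. In the liver they went from 0 to 1 with the replicate block (Cebpd, 0.58, adjusted p = 0.0608 by edgeR) and were 0 to 1 with 1 mouse left out. KI and WT libraries share only a number, with r of -0.16 to 0.24 over their 6 pairs; under that replicate block Cebpd in the skin had a log2 fold change of 1.11 (adjusted p = 0.910 by edgeR). The mouse as a block changed no call of a member between WT tissues or between KI effects.

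Partners called were 2 in the brain with the block, and in the liver, from 2, they were 0 (stricter threshold, all 21 libraries or block), 1 (Y-linked covariate) and 0 to 3 with 1 mouse left out, against 0 to 1 in the brain. Inputs called were 1 in the brain (all 21 libraries or block; 0 to 2 with 1 mouse left out), 2 in the skin (DESeq2) and, from 5 in the liver, 3 (stricter threshold), 1 (all 21 libraries) and 0 to 10. Acute-phase calls were 1 in the brain (all 21 libraries, block or DESeq2; 0 to 2 left out), from 7 in the liver 4 (stricter threshold), 1 (all 21 libraries), 13 (DESeq2) and 3 to 9, and from 1 in the skin 0 (stricter threshold or block), 2 (all 21 libraries or DESeq2) and 0 to 1. Granulocyte calls were 2 in the brain with all 21 libraries, 1 with the block or DESeq2 and 0 to 2 left out, from 10 in the liver 4 (stricter threshold or Y-linked covariate), 0 (all 21 libraries) and 1 to 11, and 1 in the skin (DESeq2).

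On plain totals the shares were 0.796%, 57.2% and 42.0% for Cebpa in brain, liver and skin, 37.8% and 57.7% for Cebpb in liver and skin, 37.3% and 53.9% for Cebpd, and 19.4%, 43.2% and 37.4% for Cebpg in brain, liver and skin. With 1 mouse left out, log2 fold changes crossed 0 for Cebpb in the brain (-0.42 to 0.018) and the skin (-0.042 to 0.43), Cebpd in the brain (-0.57 to 0.049), Cebpe in the liver (-0.0054 to 0.34), Cebpd between WT liver and skin (-0.011 to 0.31) and Cebpe between WT skin and brain (-0.25 to 2.24). Differences between KI effects crossed 0 for Cebpg in liver minus brain (-0.024 to 0.060), skin minus brain (-0.097 to 0.045) and skin minus liver (-0.087 to 0.017), for Cebpa in skin minus brain (-0.083 to 0.32), and for Cebpe, which had at most 7 counts in any brain or skin library, in skin minus brain (-1.11 to 4.56) and skin minus liver (-4.39 to 1.15). Over WT libraries the correlation of Cebpb and Cebpe turned from 0.079 to -0.074 and that of Cebpa and Cebpd from 0.17 to -0.043. Between KI and WT, Cebpe passed the filter on low counts in the liver only; it was not called in the brain (adjusted p = 0.723 and 0.604 by edgeR) or the skin (0.999 and 1) without the filter or with all 21 libraries.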
